A study of Mus musculus with 6 samples.

Results

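Respiratory complex I, the NADH:ubiquinone oxidoreductase of mitochondria, was followed in the heart of newborn mice through every array probe whose gene symbol begins with Nduf. These were 44 of 25697 probes, and they covered 35 of the 18138 genes on the array. RNA came from the hearts of 3 hSRY-ON and 3 hSRY-OFF males labelled FVB, of the FVB/N background by the methods, at postnatal day 6, with 1 array for each heart. In hSRY-ON mice a single-copy Signalox-hSRY transgene had been recombined by Cre protein carried over from the oocytes of Ddx4-Cre mothers, so that human SRY and EGFP stood under the ubiquitous CAG promoter from the earliest embryo on, and the hSRY-ON mice put on arrays were chosen to lack the Ddx4-Cre transgene itself. The labels name the controls hSRY-OFF. The methods use this name for the same transgene without recombination, while elsewhere the study describes its control littermates as non-transgenic or carrying only Ddx4-Cre, so the genotype of the control hearts is not settled here. The transgenic line is a single integration, and hSRY-ON pups grow poorly and suckle little, so the transgene, the growth deficit and the feeding of these hearts cannot be told apart.

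Complex I takes electrons from NADH through a flavin and a chain of iron-sulfur clusters in its matrix arm, hands them to ubiquinone, and pumps protons through its membrane arm. Its core subunits carry these reactions and are conserved from bacteria. The accessory subunits surround the core, and assembly factors build the complex without staying in it. Cardiac muscle is rich in mitochondria, and its oxidative capacity climbs after birth. The Ndufs and Ndufv genes hold all core subunits that are encoded in the nucleus, the Ndufa, Ndufb and Ndufc genes encode accessory subunits, and the Ndufaf genes encode assembly factors. The remaining core subunits are encoded by mitochondrial DNA, and no probe carried their symbols.

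On these arrays, read in 1 colour, brighter beads stand for more of the transcript that a probe matches. Values are given as normalized log2 intensities, background-corrected and quantile normalized, and every fold change on this scale subtracts the hSRY-OFF mean from the hSRY-ON mean. The hSRY-OFF arrays detected 12138 to 12925 probes and the hSRY-ON arrays 12704 to 13172, and the mean intensity of hSRY-OFF replicate 3, the dimmest array, was 631 against 723 to 939 on the others. Of the Nduf probes, 42 of 33 genes passed the detection filter. The only probes of Ndufs1 and Ndufab1 were detected on no array, with intensities of 142 to 158 and 134 to 184, and they were not tested. All 15 probes of cardiomyocyte markers passed the filter, among them Myh6, Tnni3 and Myl2, as the labelled tissue calls for. The dim probe of Ryr2 was detected in only 2 hSRY-ON hearts.

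Of the 42 tested Nduf probes, 31 (73.8%) were lower in the hSRY-ON hearts at an adjusted p under 0.05 and 0 were higher, while 13.7% of all 12970 tested probes were called lower and 13.8% higher, 27.5% in either direction (limma, Benjamini-Hochberg over all tested probes). The called probes belonged to 24 of the 33 genes. All 42 fold changes were negative, from -1.70 for Ndufb2, an accessory subunit of the membrane arm, to -0.06 for Ndufc2, against 6536 negative values among all tested probes. Their median was -0.69, or 61.9% of the hSRY-OFF level, and the median over all tested probes was -0.00464. A decrease of at least 1 on the log2 scale was called in 11 Nduf probes, and in 4.52% of all probes. In 39 of the 42 all 3 hSRY-ON hearts lay below all 3 hSRY-OFF hearts, where 21.6% of all probes did so. The 11 probes that did not pass the test were those of Ndufa1, Ndufa4, Ndufa6, Ndufa7, Ndufa13, Ndufc2 and Ndufv2 and both probes of Ndufb6 and of Ndufb11. In whole hearts, fewer cells of a type and less RNA per cell cannot be told apart.

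The difference was present in the deposited intensities as well. The tested Nduf probes made up 2.55%, 2.61% and 2.55% of the summed intensity of the hSRY-OFF arrays and 1.69%, 1.68% and 1.79% of that of the hSRY-ON arrays. Before any normalization the groups did not overlap in 36 of the 42 probes, but the share over all probes was not counted on these values. The hSRY-OFF replicates 1 and 2 were also the brightest arrays as a whole, with mean intensities of 878 and 939. With an exact permutation test the smallest two-sided p that 3 hearts against 3 can give is 0.1, so single values were tested only in the fit across all probes. When no normalization between arrays was applied, 23 Nduf probes (54.8%) were called lower, their median was -0.87, and the median of all probes was itself shifted to -0.12. Under that setting 1166 probes were called lower and 731 higher, where quantile normalization gave 1779 and 1788. Dropping 1 heart at a time gave 24 called Nduf probes at the fewest, without hSRY-OFF replicate 1, and 30 at the most, without hSRY-OFF replicate 3. Of all tested probes 8.38% and 14.5% were called lower under these settings, in that order.

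**Figure D1:**
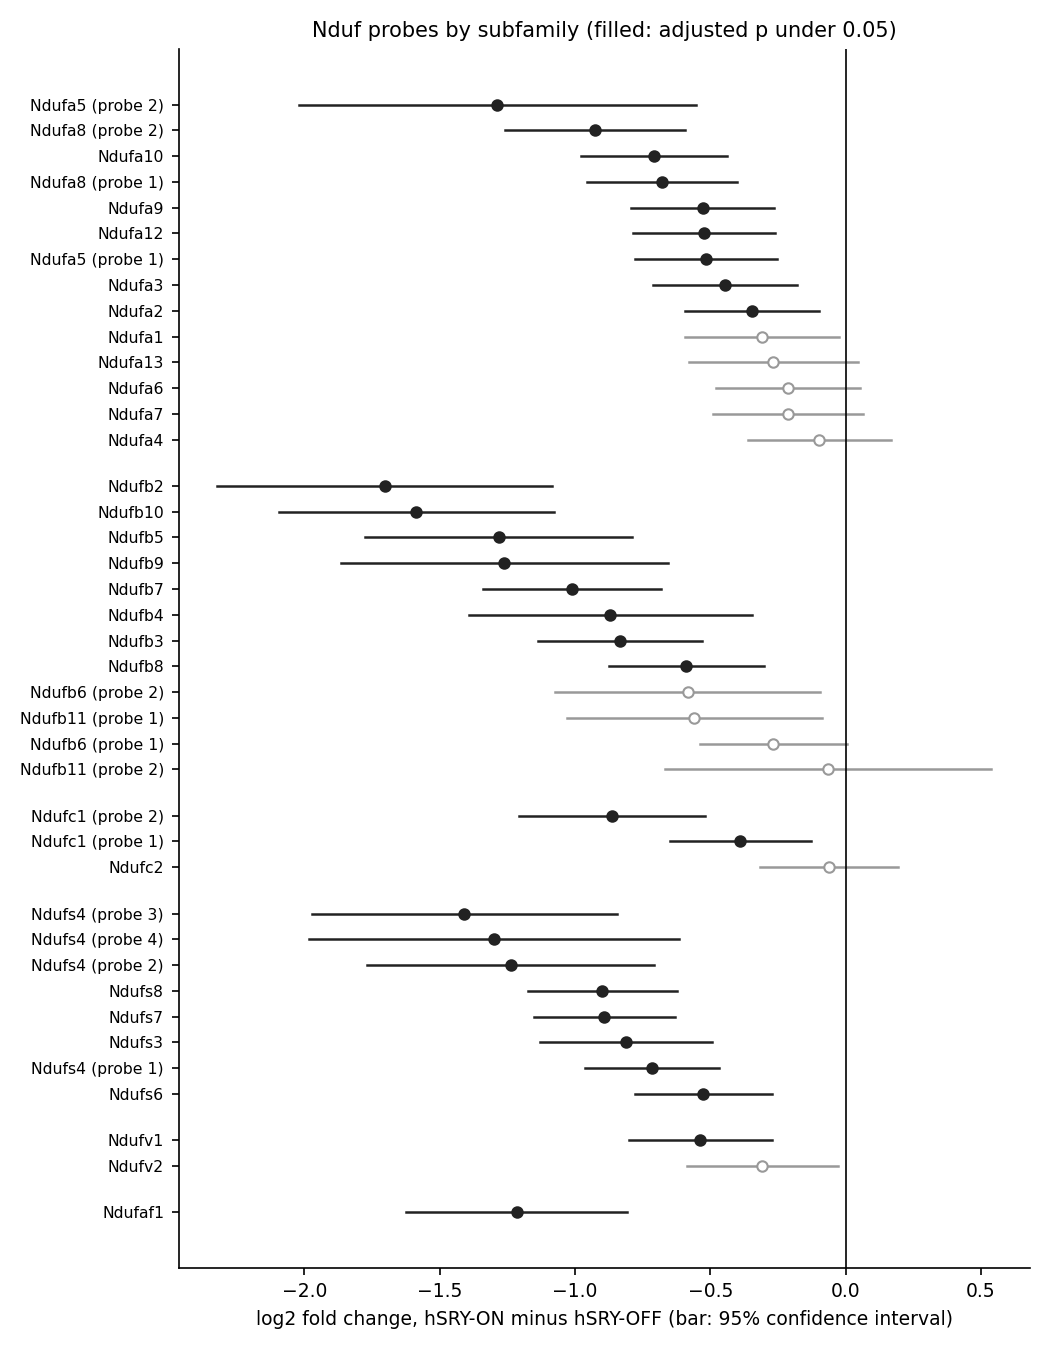
Log2 fold changes of 40 of the 42 tested Nduf probes, hSRY-ON minus hSRY-OFF (n = 3 each), grouped by subfamily, with 95% confidence intervals. Filled points passed at an adjusted p under 0.05. Every point lies to the left of 0, from -1.70 for Ndufb2 to -0.06 for Ndufc2, and probe 1 is the brightest where a gene had several.

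Because the members moved in the same direction, the promoters of their genes are shown for the 4 genes that span what was found in them. RefSeq windows (GRCm38.p6) from 250 bases before to 50 bases after the start were held for 31 of the 35 genes, as 33 windows, and were searched on both strands for letters known from promoters of nuclear respiratory genes. The upstream 250 bases follow from 5′ to 3′ on the gene's strand, with matches of the NRF-1 motif, its middle base left free, and of TNAAGGTCA, a motif bound by the estrogen-related receptors, in capitals. Ndufb4 held the most matches, Ndufa8 and Ndufs6 held 1 each, and Ndufb2, the gene with the largest decrease, held none of the letters searched.
Ndufb4, chr16:37654369-37654618, minus strand: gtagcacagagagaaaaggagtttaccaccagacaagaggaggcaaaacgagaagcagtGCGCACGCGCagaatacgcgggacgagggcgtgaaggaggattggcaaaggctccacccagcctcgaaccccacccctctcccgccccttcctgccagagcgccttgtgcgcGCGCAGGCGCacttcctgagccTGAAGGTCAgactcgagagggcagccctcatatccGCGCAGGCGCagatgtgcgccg
Ndufa8, chr2:36049339-36049588, minus strand: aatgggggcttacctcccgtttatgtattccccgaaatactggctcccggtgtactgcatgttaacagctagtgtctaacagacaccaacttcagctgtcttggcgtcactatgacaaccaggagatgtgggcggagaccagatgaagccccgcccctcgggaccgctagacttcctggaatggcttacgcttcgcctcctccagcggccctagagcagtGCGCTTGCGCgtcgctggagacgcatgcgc
Ndufs6, chr13:73328483-73328732, minus strand: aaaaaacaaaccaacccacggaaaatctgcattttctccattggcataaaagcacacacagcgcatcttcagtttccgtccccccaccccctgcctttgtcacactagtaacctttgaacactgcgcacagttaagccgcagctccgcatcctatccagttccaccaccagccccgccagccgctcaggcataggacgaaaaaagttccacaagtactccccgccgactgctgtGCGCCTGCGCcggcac
Ndufb2, chr6:39592315-39592564, plus strand: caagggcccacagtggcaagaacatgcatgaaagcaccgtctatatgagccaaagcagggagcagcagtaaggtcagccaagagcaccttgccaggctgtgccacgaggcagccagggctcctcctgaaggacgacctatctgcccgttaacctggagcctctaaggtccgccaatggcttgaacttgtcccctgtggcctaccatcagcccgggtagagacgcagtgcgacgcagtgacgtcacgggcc

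A further 4 stretches show the letters of the YY1 motif in capitals, which in these genes lay 25 to 46 bases after the start.
Ndufa9, chr6:126849098-126849122, minus strand: gtgggagAAGATGGCGGCcgccgtc
Ndufs4, chr13:114388045-114388066, minus strand: ctacaggAAGATGGCGGCggtc
Ndufs6, chr13:73328433-73328456, minus strand: caccggcAAGATGGCGGCggtgct
Ndufs7, chr10:80249466-80249490, plus strand: cgaggccAAGATGGCGGCgctggcg

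The YY1 letters were present in 4 of 33 Nduf windows (12.1%) and in 0.633% of all 32851 windows. The NRF-1 motif with a free middle base was found in 6 windows (18.2%) of Ndufa5, Ndufa6, Ndufa8, Ndufb4 and Ndufs6, against 4.6% of all windows, and its stricter form, which is held within the freer one, in 0 of 33, against 0.971%. Overlapping windows of Ndufa5 held the same NRF-1 site, which was thus counted more than once. TNAAGGTCA was found in Ndufb4 only (3.03%, against 1.28%). AACAAT, letters bound by SRY, stood in 3 windows (9.09%, against 10.7% of all), those of Ndufa10, Ndufa13 and Ndufab1. A match describes letters and shows no bound site.

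Core subunits, which carry out electron transfer, are described here by 5 tested probes, and 4 of them were called lower. Of the accessory subunits 24 of 33 tested probes were called lower, with a median of -0.59, and whether core and accessory subunits differed was not tested. Ndufs7 holds the last iron-sulfur cluster before ubiquinone and had the lowest adjusted p of all Nduf probes. Its normalized log2 intensities were 13.84, 13.92 and 13.75 in the hSRY-OFF hearts and 12.95, 12.91 and 12.98 in the hSRY-ON hearts. This is a log2 fold change of -0.89 (SE 0.11, adjusted p = 0.00145), a level of 53.9% of the hSRY-OFF level (95% interval 45% to 64.6%). Its deposited intensities were 16747, 19931 and 11278 against 7473, 7646 and 7611, so even the dimmest control array stood above every hSRY-ON array. Ndufs8, which holds the neighbouring clusters, had 13.58, 13.59 and 13.45 in the hSRY-OFF hearts and 12.59, 12.58 and 12.76 in the hSRY-ON hearts. It showed a log2 fold change of -0.90 (SE 0.12, adjusted p = 0.00173), and the groups were far apart relative to the spread within them. Ndufs3, another subunit of the matrix arm, had 13.13, 13.15 and 12.86 in the hSRY-OFF hearts and 12.08, 12.31 and 12.32 in the hSRY-ON hearts. It showed a log2 fold change of -0.81 (SE 0.14, adjusted p = 0.00471).

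Both Ndufv subunits sit at the tip of the matrix arm where NADH is oxidized. Ndufv1, which binds NADH and the flavin, had 14.31, 14.35 and 14.19 in the hSRY-OFF hearts and 13.69, 13.79 and 13.77 in the hSRY-ON hearts. It showed a log2 fold change of -0.54 (SE 0.11, adjusted p = 0.0114), and it fell short without hSRY-OFF replicate 1 (adjusted p = 0.0528) and without normalization between arrays (adjusted p = 0.0682). Ndufv2, its iron-sulfur partner, had 14.33, 14.19 and 14.10 in the hSRY-OFF hearts and 13.98, 13.88 and 13.85 in the hSRY-ON hearts. Its groups did not overlap, but a log2 fold change of -0.31 (SE 0.12, adjusted p = 0.096) did not pass, and its 95% interval was -0.59 to -0.03. It did pass under 5 alternatives, among them both scalings of whole arrays. Thus 1 of 2 Ndufv probes was called lower, and 0 were without hSRY-OFF replicate 1.

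**Figure D2:**
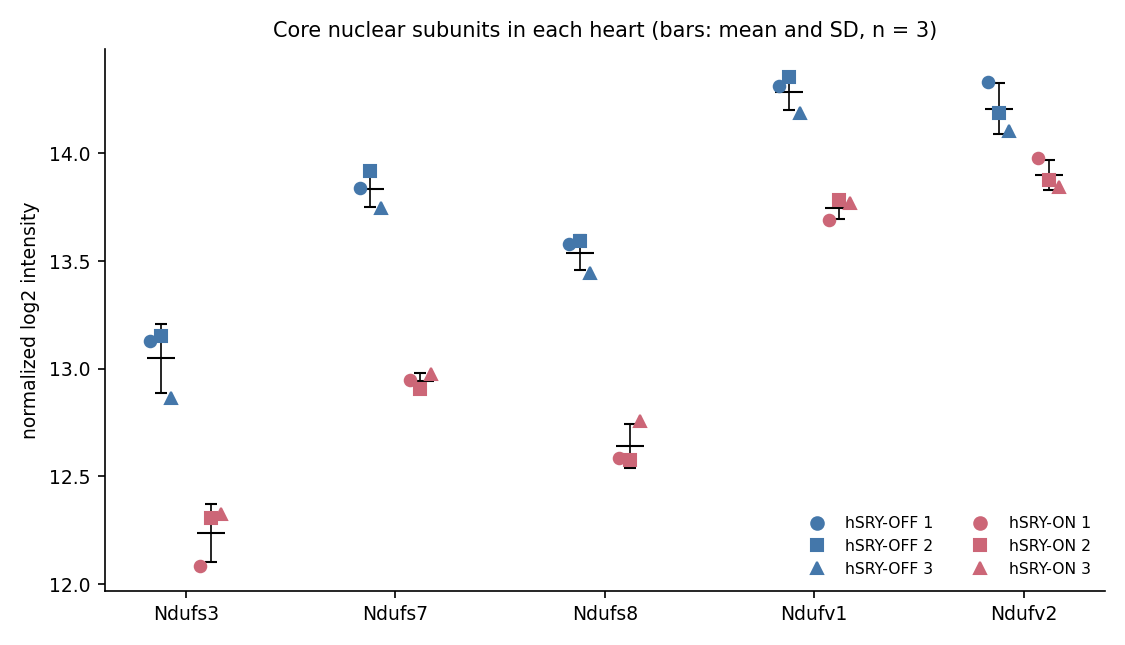
Normalized log2 intensity of each heart for 5 tested probes of core subunits, with the mean and SD of each group (n = 3). In all 5 the hSRY-ON hearts lie below the hSRY-OFF hearts.

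The Ndufs subfamily, which besides core subunits holds accessory subunits of the matrix arm, was called lower in all 10 tested probes, with a median of -0.92, and 4 of them fell by at least 1. Ndufs4 helps to attach the NADH-oxidizing tip, and its loss in mice gives a Leigh-like disease. All 4 of its probes were called, at -0.72, -1.24, -1.41 and -1.30 from the brightest to the dimmest. The probe with the largest change had 11.47, 11.86 and 10.96 in the hSRY-OFF hearts and 9.80, 9.95 and 10.32 in the hSRY-ON hearts, with a log2 fold change of -1.41 (SE 0.24, adjusted p = 0.00517). The dimmest lost its call without hSRY-OFF replicate 1 (adjusted p = 0.0536) or replicate 2 (adjusted p = 0.0517). Ndufs6, a zinc-binding subunit of the same region, had the smallest change of the subfamily. Its values were 14.76, 14.76 and 14.83 in the hSRY-OFF hearts and 14.23, 14.23 and 14.31 in the hSRY-ON hearts, with a log2 fold change of -0.53 (SE 0.11, adjusted p = 0.0106). Its call was lost without normalization between arrays (adjusted p = 0.0681). RefSeq lists a further copy, Ndufs6b, and signal from the copies could not be separated because the letters of the probes were not used here.

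The Ndufb subunits line the membrane arm. Of their 12 probes 8 were called lower, 5 of them by at least 1, and the median was -0.85. The largest changes of the whole family were here. Ndufb2 had 7.47, 7.996 and 6.88 in the hSRY-OFF hearts and 5.91, 5.73 and 5.59 in the hSRY-ON hearts, with a log2 fold change of -1.70 (SE 0.27, adjusted p = 0.0034), a level of 30.7% of the hSRY-OFF level (95% interval 20% to 47.2%). Its probe was dim, with deposited intensities of 352, 473 and 210 against 188, 186 and 174, and without background correction its fold change was -0.73 and stayed called. Ndufb10, another subunit of the membrane arm, was brighter and had 10.88, 10.93 and 10.29 in the hSRY-OFF hearts and 9.001, 8.91 and 9.44 in the hSRY-ON hearts. This was a log2 fold change of -1.59 (SE 0.22, adjusted p = 0.00209). The groups of both genes stood clear of each other, although hSRY-OFF replicate 3 was the lowest control in both. Ndufb5, Ndufb9 and Ndufb7 fell by 1.28, 1.26 and 1.01 on the log2 scale, and Ndufb3 and Ndufb8 by 0.83 and 0.59.

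At the dim end, Ndufb4 had 6.86, 7.29 and 6.49 in the hSRY-OFF hearts and 6.01, 6.26 and 5.76 in the hSRY-ON hearts. It showed a log2 fold change of -0.87 (SE 0.22, adjusted p = 0.0257), and the call was lost when replicate 1 or 2 of hSRY-OFF or replicate 1 or 3 of hSRY-ON was left out (adjusted p of 0.0629 to 0.0736). RefSeq lists the copies Ndufb4b and Ndufb4c, which could not be told apart from it. Neither probe of Ndufb11 passed. The brighter had 7.58, 7.62 and 6.89 in the hSRY-OFF hearts and 6.77, 6.85 and 6.79 in the hSRY-ON hearts, and a log2 fold change of -0.56 (SE 0.20, adjusted p = 0.0779). It did pass with array weights (adjusted p = 0.0098) and without hSRY-OFF replicate 3 (adjusted p = 0.00572). The dimmer had 5.95, 5.78 and 5.67 in the hSRY-OFF hearts and 6.31, 5.22 and 5.67 in the hSRY-ON hearts and was not detected in hSRY-ON replicate 2. Its groups overlapped, with a log2 fold change of -0.07 (SE 0.26, adjusted p = 0.877) and an interval of -0.67 to 0.54, and hSRY-ON replicate 1 was its highest heart. The dimmer probe of Ndufb6 had 10.63, 9.99 and 9.95 in the hSRY-OFF hearts and 9.82, 9.38 and 9.62 in the hSRY-ON hearts. Its groups stood apart only narrowly, with a log2 fold change of -0.58 (SE 0.21, adjusted p = 0.0778), and the brighter probe, at -0.27, did not pass either (adjusted p = 0.13). Among other alternatives, the dimmer and the brighter Ndufb6 probe passed without background correction (adjusted p = 0.0427 and 0.0434).

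Of the 14 Ndufa probes 9 were called lower, with a median of -0.48, and 1 fell by at least 1. Without hSRY-ON replicate 1 the number was 5. The probe that fell most was the dimmer one of Ndufa5, an accessory subunit of the matrix arm near the site of ubiquinone. It had 7.82, 8.51 and 7.22 in the hSRY-OFF hearts and 6.44, 6.36 and 6.90 in the hSRY-ON hearts, with a log2 fold change of -1.29 (SE 0.31, adjusted p = 0.0209). Its spread was wide, and the call was lost without hSRY-OFF replicate 1 or hSRY-ON replicate 1 or 2 (adjusted p of 0.0570 to 0.0650). The brighter probe was at -0.52 (adjusted p = 0.013), a call lost without hSRY-ON replicate 1 (adjusted p = 0.0567). Ndufa8, a membrane arm subunit, was called on both probes, at -0.68 and -0.92, and Ndufa10, of the same arm, changed by -0.71. Ndufa9 and Ndufa12, both of the matrix arm, fell by 0.53 and 0.52 on the log2 scale. Ndufa3, of the membrane arm, and Ndufa2, of the matrix arm, were called at -0.45 and -0.34. The call of Ndufa2 (adjusted p = 0.0474) was lost with any 1 heart left out (adjusted p of 0.0756 to 0.133), and that of Ndufa3 without replicate 1 or 2 of either group (adjusted p of 0.0574 to 0.0815). Ndufa1, Ndufa13 (also known as GRIM-19), Ndufa6 and Ndufa7 did not pass, at -0.31, -0.27, -0.21 and -0.21. With an intensity trend in eBayes, Ndufa1, Ndufa13 and Ndufa6 did pass (adjusted p = 0.0134, 0.0439 and 0.0395). Both scalings of whole arrays also gave a call for Ndufa1 and Ndufa13 (adjusted p of 0.0373 to 0.0418). When arrays were not normalized to each other, 5 of the 9 calls were lost, those of Ndufa9 (adjusted p = 0.0668), Ndufa12 (adjusted p = 0.0714), the brighter Ndufa5 probe (adjusted p = 0.0538), Ndufa2 (adjusted p = 0.217) and Ndufa3 (adjusted p = 0.102).

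Ndufa4 bears the family's name but is now placed in complex IV, and it had the smallest change of the Ndufa probes. Its values were 14.62, 14.53 and 14.69 in the hSRY-OFF hearts and 14.54, 14.57 and 14.44 in the hSRY-ON hearts, and the groups overlapped. This was a log2 fold change of -0.10 (SE 0.11, adjusted p = 0.564), with an interval of -0.36 to 0.17 that does not reach the median of the family. Among others, the intervals of Ndufa6, Ndufa7 and Ndufc2, with lower ends of -0.48, -0.49 and -0.32, did not reach it either. Ndufa4 was also the brightest tested Nduf probe, with a mean of 14.57.

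The Ndufc subunits belong to the membrane arm. Ndufc1 was called lower on both probes and Ndufc2 was not, which gave a median of -0.39 over 3 probes. The dimmer Ndufc1 probe had 13.26, 13.32 and 13.05 in the hSRY-OFF hearts and 12.21, 12.26 and 12.58 in the hSRY-ON hearts, with a log2 fold change of -0.86 (SE 0.15, adjusted p = 0.00492). The brighter was at -0.39 (adjusted p = 0.0378) and kept its call only without hSRY-ON replicate 3. Without any other heart its adjusted p was 0.0630 to 0.112, which left 1 Ndufc call, and without normalization between arrays it was 0.133. Ndufc2 had 13.42, 13.41 and 13.50 in the hSRY-OFF hearts and 13.33, 13.44 and 13.38 in the hSRY-ON hearts. Its groups overlapped, with a log2 fold change of -0.06 (SE 0.11, adjusted p = 0.716) and an interval of -0.32 to 0.19, the smallest change of all tested Nduf probes.

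Ndufaf1 was the only assembly factor listed under an Ndufaf symbol. It belongs to the assembly complex that builds the membrane arm together with Ecsit, Acad9 and Tmem126b. It had 10.06, 10.23 and 9.60 in the hSRY-OFF hearts and 8.66, 8.74 and 8.84 in the hSRY-ON hearts. This was a log2 fold change of -1.22 (SE 0.18, adjusted p = 0.00246), a level of 43.1% of the hSRY-OFF level (95% interval 32.5% to 57.1%).

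Other complex I genes stood on the array under other symbols, and 14 of their 20 tested probes were called lower, 0 higher, with a median of -0.65, and without normalization between arrays 7 of the 20 were called. They included 5 Nduf genes under older names. Among these Ndufaf3 and Ndufaf5, which act early in assembly, changed by -1.16 (adjusted p = 0.0194) and -0.96 (adjusted p = 0.00197). Ndufaf4 and Ndufaf7 did not pass, at -0.53 and -0.38, and of the 3 probes of Ndufv3, an accessory subunit at the NADH-oxidizing tip, 1 was called, at -0.42, while the others were at -0.34 and 0.03. The partners of Ndufaf1 were lower too. Ecsit had the largest decrease of this list, with -1.43 (SE 0.19, adjusted p = 0.00168), Tmem126b changed by -0.67, and Acad9 by -0.55 on 1 probe and -0.52, which did not pass, on the other. Foxred1, an assembly factor with a flavin fold, was called on 4 of 5 probes, from -1.001 to -0.62.

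The other complexes of the chain and general mitochondrial genes were set beside complex I by the same counts. Complex II had 3 of 5 probes called lower and a median of -1.06, with Sdhb, its iron-sulfur subunit, lowest at -1.24 (adjusted p = 0.00167). That median of 5 probes was -0.49 without background correction and -0.70 without hSRY-OFF replicate 2. Complex III had 2 of 6 and -0.33, led by cytochrome c1 (Cyc1) at -0.97 (adjusted p = 0.00164). Complex IV had 7 of 16 and -0.40, led by Cox7a1, a subunit isoform of heart and skeletal muscle, at -1.44 (adjusted p = 0.000966), and only 3 probes were called without hSRY-OFF replicate 1 or hSRY-ON replicate 1, and 4 without the replicate 2 of either group. ATP synthase had 7 of 14 and -0.51, led by its catalytic-head subunit Atp5a1 at -1.42 (adjusted p = 0.00255). Of 16 probes for mitochondrial genome upkeep, import and matrix proteins, 8 were called lower, with a median of -0.47, led by citrate synthase (Cs) at -1.27 (adjusted p = 0.000801), and 4 were without hSRY-OFF replicate 1. Tfam, which packs mitochondrial DNA, was called on both probes, at -0.73 and -0.78. In these lists limma called 0 probes higher, and 0 were higher at an unadjusted p under 0.05. Differences between complexes were not tested, and the lists share the 6 arrays.

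To see how the change varied with probe brightness, all tested probes were ranked by their mean over the 6 hearts and cut into 4 sets of about the same number. Nduf probes were mostly bright, 31 of 42 in the brightest set. From the dimmest set on, 1 of 2, 3 of 4, 4 of 5 and 23 of 31 Nduf probes were called lower, where 10.5%, 13.9%, 14.3% and 16.1% of all probes in these sets were. The medians of the Nduf probes were -0.47, -1.27, -1.28 and -0.54, and those of all probes -0.03, -0.03, 0.00 and 0.04. The call in the dimmest set was that of Ndufb4, which hung on single hearts as given above. Calls were thus made in every set, and the median change was smallest in the dimmest and the brightest.

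Over all 42 tested Nduf probes the size varied with the level, which was looked at with bounds of 12 and 14 chosen after the values were seen. The brightest set began at a mean of 9.99. It held all Nduf probes at 12 or above, while those below 12 came from every set. The 12 Nduf probes at a mean of 14 or above had a median of -0.42, or 74.9% of the hSRY-OFF level, and 7 were called. The 15 probes from 12 to 14 had a median of -0.72 (60.9%), with 12 called. The 15 probes below 12 had a median of -1.26 (41.7%), again with 12 called. Over the 42 probes, which share the arrays and are not independent replicates, Spearman's rho of mean level and fold change was 0.663. Among all tested probes the medians of these levels were 0.02, 0.05 and -0.01, and 23 of 129, 128 of 705 and 1628 of 12136 were called lower. Only 129 tested probes (0.995%) reached 14, and the normalized values end at 15.49. Of the 11 probes that did not pass, 8 were in the brightest set.

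**Figure D3:**
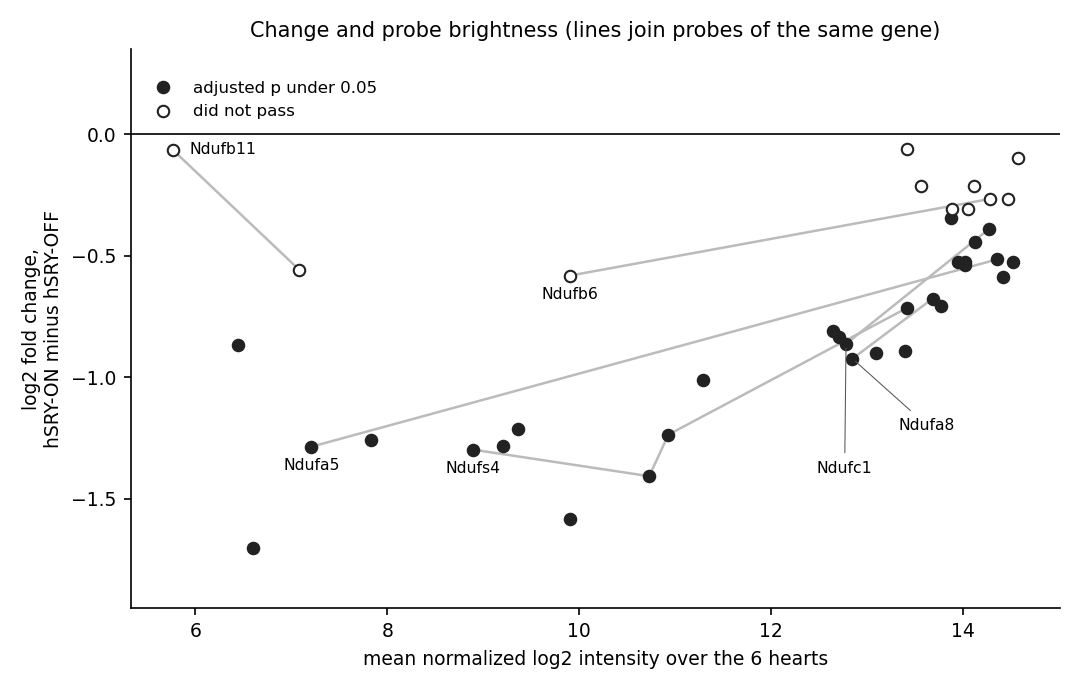
Log2 fold change (hSRY-ON minus hSRY-OFF) of 40 of the 42 tested Nduf probes against their mean normalized log2 intensity over the 6 hearts. Lines join probes of 1 gene, named at its dimmest probe, and filled points passed at an adjusted p under 0.05. Over all 42 probes, those at 14 or above had a median of -0.42 and those below 12 a median of -1.26.

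Probes of 1 gene differed in the same way. In 6 of the 7 Nduf genes with at least 2 tested probes, the brightest probe had the smallest change, the exception being Ndufb11, whose probes were both dim. Over all 2411 such genes on the array the brightest probe had the smallest change in 44.4%, and in 47.2% of the 443 with at least 1 probe called lower. Where the brightest probe of those genes reached a mean of 13, a bound chosen after the values were seen, it was 88.5%, or 23 of 26. Ndufa5 had the widest spread between its probes, 0.77 on the log2 scale, over means of 14.35 and 7.21. Ndufs4 spanned 0.69 over its 4 probes. None of these 7 genes had probes that differed in call. Ndufv3, listed under an older name and so not among the 7, had 1 of 3 probes called. Its brightest probe was at -0.34 and its dimmest at 0.03, so it did not follow the pattern. Which of its probes follows the transcript of a gene most closely was not tested.

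The mean of the tested Nduf probes was 12.37, 12.46 and 12.18 in the hSRY-OFF hearts and 11.57, 11.54 and 11.67 in the hSRY-ON hearts, without overlap. The hSRY-OFF replicate 3, the dimmest array, was the lowest control in all 11 Nduf probes of the 3 dimmer sets and in 14 of 31 in the brightest. On a scale where the mean of the hSRY-ON hearts is 0 and that of the hSRY-OFF hearts is 100, its Nduf mean stood at 78.8 over all probes, and at 44.1, 52.7, 67.3 and 90.5 from the dimmest set to the brightest. In the dimmest set, of 2 probes, it lay below hSRY-ON replicate 1, which stood at 61.1. Without it the median Nduf change was -0.71 and 30 probes were called, with 14.5% of all tested probes called lower.

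**Figure D4:**
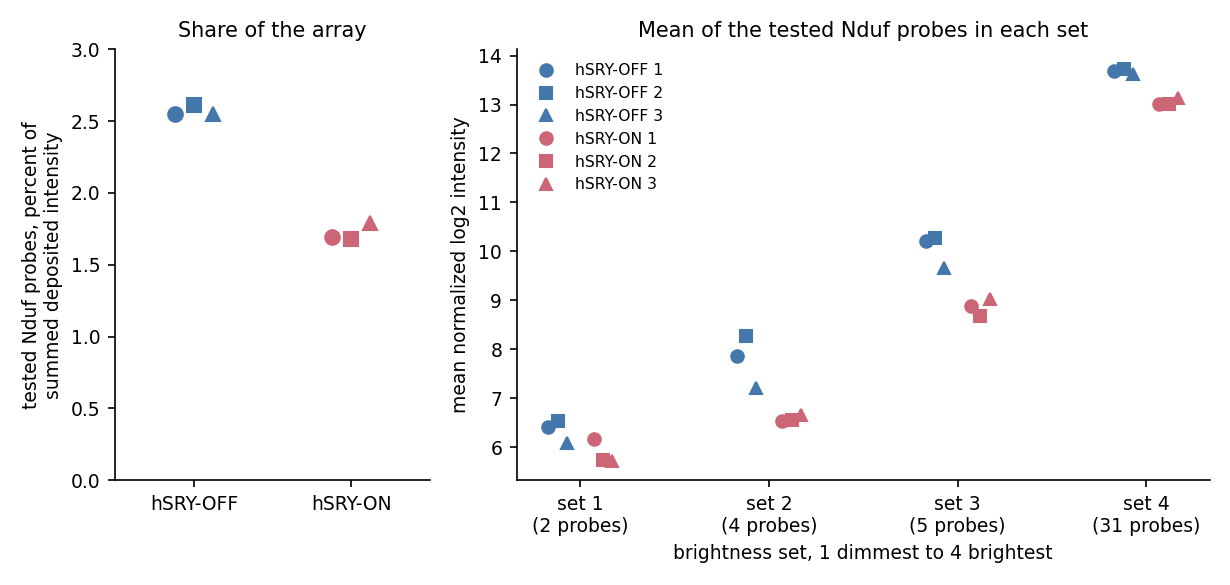
Left, share of the tested Nduf probes in the summed deposited intensity of each array, in percent. Right, mean normalized log2 intensity of the tested Nduf probes of each heart in the 4 brightness sets. The hSRY-OFF shares run from 2.55% to 2.61%, the hSRY-ON shares from 1.68% to 1.79%, and the groups overlap in the dimmest set only, which holds 2 probes.

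Markers of cell types were read from the same arrays as summed normalized linear levels. Of 15 tested cardiomyocyte probes 7 were lower and 1 higher in hSRY-ON. Their sum ranged from 282400 to 302100 over the hSRY-OFF hearts against 248400 to 279700 over the hSRY-ON hearts. The 1 called higher was Myh7, at 2.94, and the 7 called lower ranged from -1.97 to -0.51, both on probes of Myh6. Myl2, Myl3, Nppa and Tnnc1, with means of 15.32 to 15.38, stood near the array maximum of 15.49 and weighed heavily in the sum. The sum therefore says little about the other members. Of 6 tested smooth muscle probes 5 were higher, 4 of them for Acta2 (47990 to 52590 against 92430 to 110000), with Cnn1 undetected, and of 6 macrophage probes 4 were higher (1407 to 1566 against 2420 to 3207). The smooth muscle sum was nearly all Acta2. Myh11 of that list went the other way, at -0.42, with every hSRY-ON heart below every hSRY-OFF heart, and was not called. Fibroblast markers had 1 of 9 lower and 1 higher (34850 to 39140 against 30840 to 34540), endothelium 2 of 7 lower and 1 higher (12760 to 13380 against 12520 to 14390, Kdr undetected) and erythroid cells 2 of 6 lower (51120 to 63600 against 51700 to 56620). Adipocyte markers had 2 of 4 higher, Adipoq and Ucp1 (1981 to 2730 against 1191 to 3742, Elovl3 and Plin undetected). Cfd, at 1.26, was not called. Cidea of that list went the other way, at -1.05, with every hSRY-ON heart below every hSRY-OFF heart, and was not called. Skeletal muscle had 3 of 4 lower (729 to 876 against 371 to 545, with Myh1, Myh2, Myh4, Myod1 and Tnnt3 undetected). The liver list summed to 140 to 152 against 311 to 351, with Alb and Serpina1a undetected. Its 1 tested probe, Ttr, was called higher but was detected in 0 hSRY-OFF and 3 hSRY-ON hearts. It passed the filter only through hSRY-ON, so nothing is drawn from its call. For the thymus 0 of 1 tested probes were called, and Cd3e, Cd4, Cd8a, Dntt and Rag1 were undetected. The lung list summed to 132 to 194 in hSRY-OFF hearts and to 143 and 177 in 2 hSRY-ON hearts, but to 13868 in hSRY-ON replicate 1, nearly all of it Scgb1a1. Without that heart the Nduf median was -0.70 and 25 probes were called, with 9.3% of all tested probes called lower. The part of these cell types in the Nduf levels was not tested.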

How the data were processed

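Total RNA of 3 hSRY-ON and 3 hSRY-OFF hearts was hybridized by the authors, as biotinylated cRNA, to MouseRef-8 v2.0 BeadChips. They deposited for each probe and heart a linear bead intensity without normalization, and a detection p-value against the negative-control beads. How beads were summarised is not given in the sources used here. The submitters' notes name limma and the methods name TCC without settings. TCC was not run, and a scaling in its manner was an alternative. No genome build enters these values.

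From the deposited intensities, neqc of limma 3.58.1 (R 4.3.3) took the background from the detection p-values, and log2 values followed after an offset of 16 and quantile normalization. Probes with a detection p under 0.05 on at least 3 of 6 arrays were tested with lmFit and eBayes, two-sided, on the group alone, with Benjamini-Hochberg adjustment over all 12970 tested probes (threshold 0.05). Each array detected 47.2% to 51.3% of its probes, and the number of arrays limits the precision. No arrays held identical values. The labels number the replicates and do not say whether the pups shared a litter, so p-values cover the spread between these hearts. Same-numbered hearts did not deviate together (correlations of -0.0248, 0.0375 and -0.0655).

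Members and lists were chosen with earlier results of these data known. Values of every heart are given for core subunits and, in each subfamily and brightness set, for the probes with the largest and the smallest change, and of other lists the called probe with the largest decrease is named. Further genes of these lists were named after their values were seen. Alternatives changed the background correction, the normalization, the filter, the moderation, the array weights and the hearts used. In simulated data of 3 against 3 hearts with 16634 tested probes, 88 of 100 planted changes of 2 on the log2 scale were called and 48 of 100 of 1. Only these probes were changed there, drawn from those detected in all hSRY-OFF hearts. In the data 27.5% of tested probes were called, so the rates need not hold for them. Python 3.11.15 with matplotlib 3.10.9 drew the figures. Promoter windows came from RefSeq. Results of 1 gene are not reported here.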

Additional observations from a re-analysis of the deposited data

How the results depend on the processing

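Every Nduf fold change kept its sign under the alternatives that kept all hearts, and 20 of the 31 calls were kept under every alternative and with each heart left out. With all hearts, the count of Nduf calls ran from 23, without normalization between arrays, to 37, with an intensity trend in eBayes. Of all tested probes 8.99% and 15.1% were called lower under these settings, in that order. The dimmer Ndufb11 probe, at -0.07 and not called, ranged from -0.35, without hSRY-ON replicate 1, to 0.19, without hSRY-ON replicate 2, and was at 0.01 without hSRY-OFF replicate 1. The slide as a block was not run, since the headers name no slides. Probes near background limit the dimmest set, where 1 call of 2 was made. Where a value moved, its cause was not tested.

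Without normalization between arrays, medians moved to -0.87 for Nduf, -0.74 for Ndufa, -0.67 for Ndufc, -1.06 for Ndufs, -0.67 for Ndufv, -0.80 for the brightest set, -0.77 for complex I genes under other symbols, -0.61 for complex III, -0.54 for complex IV, -0.61 for ATP synthase and -0.62 for the mitochondrial list. Calls fell to 4 for Ndufa, 1 for Ndufc, 0 for Ndufv, 15 in the brightest set, 7 for complex I genes under other symbols and 5 for the mitochondrial list. With arrays scaled to the median of detected probes, and in the manner of TCC, 13.8% and 13.5% of all tested probes were called lower. Medians under these scalings were -0.63 and -0.62 for Ndufa, -0.56 and -0.55 for Ndufc, and -0.57 and -0.56 for Ndufv with 2 calls each. They were -0.70 and -0.69 for the brightest set, and -0.50 and -0.49 for complex III, which had 4 calls in the manner of TCC.

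Without background correction, medians were -0.66 for Ndufb, -0.18 and -0.71 for the dimmest set and the next, -0.49 for complex I genes under other symbols, -0.49 for complex II and -0.32 for the mitochondrial list, with 2 calls for Ndufv, 4 for complex III and 11 for complex IV. Under that setting 14.7% of all tested probes were called lower. An offset of 50 gave -0.81 for complex II. Without a probe filter, medians were -0.55 for complex I genes under other symbols, -0.32 for complex IV, -0.38 for ATP synthase and -0.34 for the mitochondrial list, and with detection on all 6 arrays the dimmest set, then 1 probe, was at -0.87. The intensity trend and array weights each gave 2 calls for Ndufv and 4 for complex III, and the trend 11 for complex IV. The trend and the weights called 15.1% and 19.2% of all tested probes lower, in that order.

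The hearts share only a number, so the replicate number as a block gives no paired result. With this block 28 Nduf probes were called, 27 of them among the 31, where 11% of all tested probes were called lower. The calls were 1 for Ndufc, 4 for complex IV and 5 for the mitochondrial list. It changed no other of these counts by over 1.5 times.

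With each heart left out in turn, Nduf calls ranged from 24 to 30 and the Nduf median from -0.73 to -0.66. The share of all tested probes called lower ranged from 8.38% to 14.5%. Calls ranged from 5 to 8 for Ndufa, 7 to 9 for Ndufb, 1 to 2 for Ndufc, 9 to 10 for Ndufs, 0 to 1 for Ndufv, 0 to 1 in the dimmest set, 3 to 7 for complex IV and 4 to 10 for the mitochondrial list, and the medians from -0.56 to -0.43 for ATP synthase, -1.28 to -0.70 for complex II and -0.42 to -0.30 for complex III.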
